A study of Homo sapiens with 9 samples.

Results

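The 10 glycolysis enzyme genes HK2, GPI, PFKP, ALDOA, TPI1, GAPDH, PGK1, ENO1, PKM and LDHA were taken by symbol from a table of 35876 gene symbols, and all 10 were present. They were measured by RNA sequencing in 9 libraries, 3 from each of 3 genotypes, of HEK293 cells, an established line derived from human embryonic kidney. The genotypes were CC_Cas9 (here the Cas9 group), CC_Cas9_Cre (the Cre group) and CC_Cas9_Flpo (the Flpo group), so every group carried Cas9, the nuclease that a guide RNA directs to a DNA site. Cre recombines DNA at loxP sites and Flpo at FRT sites. The labels do not explain the prefix CC, name no treatment, time or targeted gene, and do not say whether replicates came from separate cultures or clones, so p-values measure the spread between these libraries only.

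Glycolysis converts glucose to pyruvate in the cytosol. Hexokinase traps glucose as glucose 6-phosphate, phosphofructokinase commits the sugar to breakdown, aldolase splits it, and the lower steps from GAPDH to pyruvate kinase return ATP and NADH. Lactate dehydrogenase then turns pyruvate into lactate and regenerates NAD+. Proliferating cultured cells commonly express the HK2, PFKP, PKM and LDHA forms, and several of these genes are known targets of the hypoxia-inducible factor HIF-1.

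Total estimated counts ran from 993902 to 3761780 in the Cas9 libraries, from 213907 to 1701730 in the Cre libraries and from 4989520 to 8833490 in the Flpo libraries, so the Cre and Flpo totals did not overlap. Transcripts of the mitochondrial genome held 2.91% to 11.2% of counts, and the single symbol AC010970.1 held 9.99% to 21.9% in the Cas9 libraries and 17.2% in Cre replicate 1, against 1.04% and 1.51% in Cre replicates 2 and 3 and 0.591% to 3.35% in Flpo. Its part in the results was not tested. Of the HEK293 line markers, KRT8, KRT18 and VIM were detected in all 9 libraries, LHX1 in 7 of 9 and NEFM in 8 of 9, while PAX2 had 1 count in all. The labels' extraction text mentions livers, and the 8 hepatocyte markers together held at most 7.52 CPM (the count scaled by the library total and edgeR's TMM factor) in any library, with FGB at 0 throughout and ALB at 0 in 8 of 9. Of the immune cell markers, CD3E had no count, PTPRC had none in the Cas9 and Cre groups, and the list summed to 32.2 to 264 CPM, most of it from LYZ. In bulk RNA, fewer expressing cells and less RNA per cell cannot be told apart.

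The enzymes were expressed at very different levels. On a per-length scale (TMM-scaled CPM per kilobase of the APPRIS principal transcript), the median over the 9 libraries was 1346 for GAPDH, 1026 for ALDOA, 507 for TPI1, 265 for PKM, 191 for LDHA, 160 for ENO1, 79.6 for GPI, 24.7 for PGK1, 14.7 for PFKP and 0.576 for HK2. The bottom of this order was fixed: PGK1 ranked 8, PFKP 9 and HK2 10 in every library. Neighbours at the top were not separated, since GAPDH exceeded ALDOA in 7 of 9 libraries and ALDOA exceeded TPI1 in 7. The middle of the order changed with group. PKM lay above LDHA in all 3 Cas9 and all 3 Cre libraries but in 0 of 3 Flpo libraries, while LDHA exceeded ENO1 in 1 of 9.

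**Figure D1:**
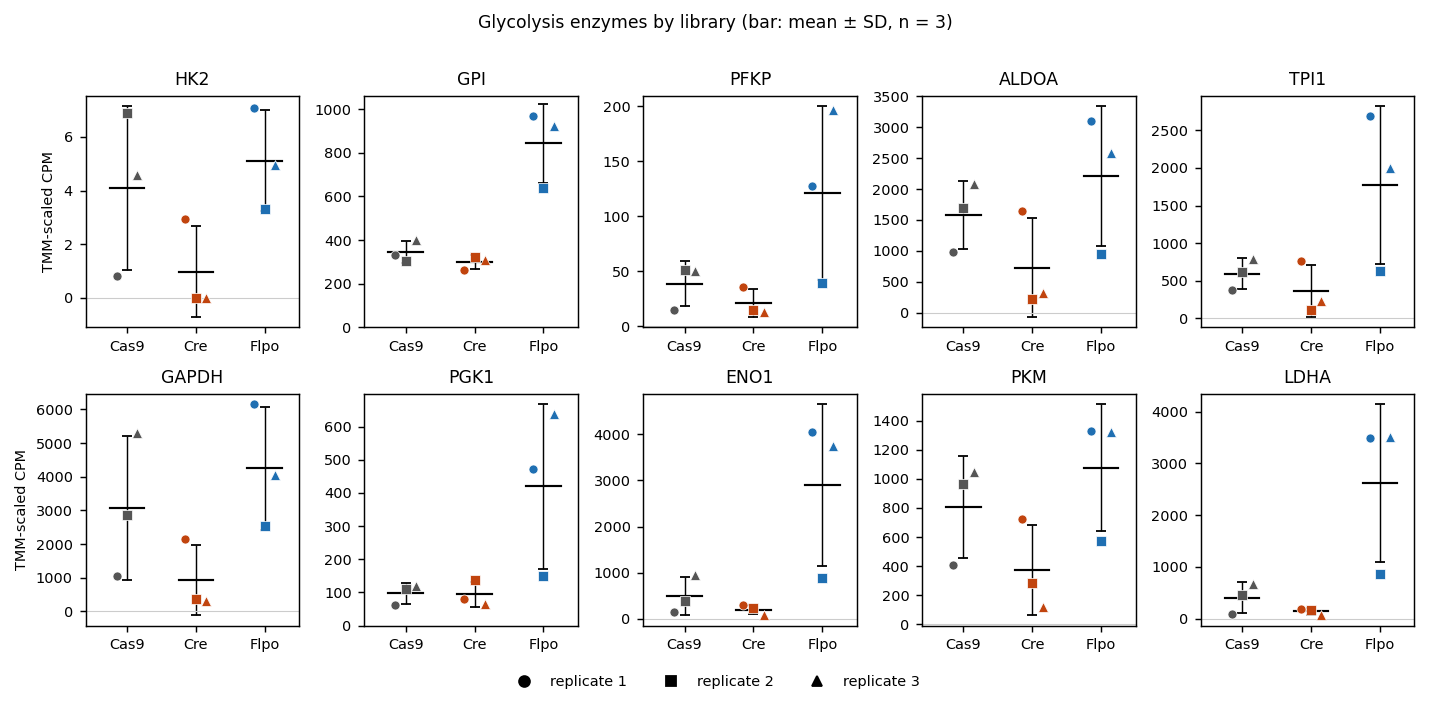
TMM-scaled CPM of the 10 enzymes (vertical axes, a separate scale for each gene) in the Cas9, Cre and Flpo libraries; markers are single libraries, the horizontal bar is the mean and the whiskers the SD of 3 libraries. For LDHA, Flpo replicates 1 and 3 lie at 3492 and 3504 CPM and Flpo replicate 2 at 856, all above the other 6 libraries.

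Cre against Flpo was the pairwise comparison in which edgeR called enzymes. Of the 9 enzymes that passed the filter on low counts, 4 were lower in Cre than in Flpo: PFKP, PGK1, ENO1 and LDHA. In the other direction there were 0, and 5 did not pass an adjusted p of 0.05 in edgeR's quasi-likelihood test. Among all 11905 genes tested, 14.3% were called lower in Cre. The median log2 fold change of the 9 enzymes was −2.18, beside −0.34 for all genes tested. The groups did not overlap, with Cre lower, for 6 of the 9 enzymes, against 28.0% of all genes.

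LDHA makes the A subunit of lactate dehydrogenase, which favours lactate formation in muscle and tumour cells (chromosome 11, 18394388 to 18408425, plus strand, GRCh38). It stood at 3492, 856 and 3504 CPM in Flpo replicates 1, 2 and 3, at 193, 175 and 67.1 CPM in the Cre replicates, and at 88.4, 462 and 668 CPM in the Cas9 replicates. Every Flpo library lay above every other library, and Flpo replicate 2 lay closer to Cas9 replicate 3 than to the other Flpo libraries. Means were 2617 ± 1525 CPM in Flpo, 145 ± 68.2 in Cre and 406 ± 294 in Cas9 (SD, n = 3 each). The log2 fold change of Cre against Flpo was −4.18 with a standard error of 0.95, and the edgeR adjusted p was 0.0185.

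ENO1 is the main enolase outside muscle and neurons, and makes phosphoenolpyruvate (chromosome 1, 8861000 to 8879250, minus strand). Its levels were 4062, 889 and 3754 CPM in the Flpo replicates, 293, 224 and 83.3 CPM in the Cre replicates and 148, 376 and 946 CPM in the Cas9 replicates. All Flpo libraries exceeded all Cre libraries, but Cas9 replicate 3 exceeded Flpo replicate 2. The log2 fold change was −3.86 with a standard error of 0.95 (edgeR adjusted p = 0.0206). The annotation places the antisense gene ENO1-AS1 over an exon of ENO1, and the use of strand in counting is not given in the sources used here.

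PGK1, phosphoglycerate kinase, carries out the first ATP-forming step (chromosome X, 77910739 to 78129296, plus strand). It stood at 473, 148 and 637 CPM in the Flpo replicates, 81.2, 138 and 65.6 CPM in the Cre replicates and 61.2, 111 and 121 CPM in the Cas9 replicates. The Flpo range began just above the others, since Flpo replicate 2 exceeded Cre replicate 2 by a small margin. The log2 fold change was −2.17 with a standard error of 0.62 (edgeR adjusted p = 0.0313). The call was lost when Cre and Flpo were fitted without the Cas9 libraries (edgeR adjusted p = 0.0548). Its annotated span includes exons that overlap ATP7A.

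PFKP is the platelet-type subunit of phosphofructokinase (chromosome 10, 3066333 to 3137712, plus strand). It was measured at 127, 39.1 and 197 CPM in the Flpo replicates, 35.6, 14.9 and 12.9 CPM in the Cre replicates and 14.96, 51.1 and 49.97 CPM in the Cas9 replicates. The Cre levels were 73, 4 and 15 counts, so Cre replicate 2 lay near the floor of 3 counts. Flpo replicate 2 fell below 2 of the Cas9 libraries and only a little above Cre replicate 1. The log2 fold change of Cre against Flpo was −2.45 with a standard error of 0.71 (edgeR adjusted p = 0.0317).

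The other tested enzymes had negative log2 fold changes that did not pass. GPI, which converts glucose 6-phosphate to fructose 6-phosphate (chromosome 19, 34359480 to 34402413), was the steadiest within groups, at 334, 303 and 400 CPM in Cas9, 264, 324 and 309 CPM in Cre and 969, 637 and 925 CPM in Flpo. Its Flpo libraries stood apart from the other 6, with a log2 fold change of −1.50 ± 0.53 (SE) and an edgeR adjusted p of 0.0577. TPI1, which interconverts the triose phosphates (chromosome 12, 6867119 to 6870948), had 2686, 624 and 2005 CPM in Flpo and 761, 112 and 224 CPM in Cre, so Cre replicate 1 lay above Flpo replicate 2. Its log2 fold change was −2.27 ± 0.83 (SE; edgeR adjusted p = 0.0666).

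GAPDH, the NADH-forming dehydrogenase often used as a reference gene, is on chromosome 12 (6533927 to 6538374). It had 6150, 2523 and 4060 CPM in Flpo, 2144, 365 and 297 CPM in Cre and 1052, 2865 and 5303 CPM in Cas9. It therefore varied several-fold within the Cas9 group alone, and the difference between Cre and Flpo, −2.18 ± 1.00 (SE), had an edgeR adjusted p of 0.121. ALDOA, the main aldolase (chromosome 16, 30064164 to 30070457), stood at 3109, 947 and 2585 CPM in Flpo and 1645, 218 and 321 CPM in Cre (log2 fold change −1.60 ± 0.88, edgeR adjusted p = 0.184). PKM, pyruvate kinase of muscle and proliferating cells (chromosome 15, 72199029 to 72231822), stood at 1331, 570 and 1322 CPM in Flpo and 721, 284 and 119 CPM in Cre (−1.52 ± 0.75, edgeR adjusted p = 0.148). For both genes Cre replicate 1 exceeded Flpo replicate 2.

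HK2, the insulin-responsive hexokinase (chromosome 2, 74833981 to 74893359), did not pass the filter and was not tested. Its counts were 41, 13 and 31 in the Flpo replicates, 6, 0 and 0 across Cre and 1, 12 and 16 in the Cas9 replicates. A floor of 3 counts corresponded to 11.2 CPM in Cre replicate 2, above the HK2 level of every library, so a difference was not detectable at that depth.

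**Figure D2:**
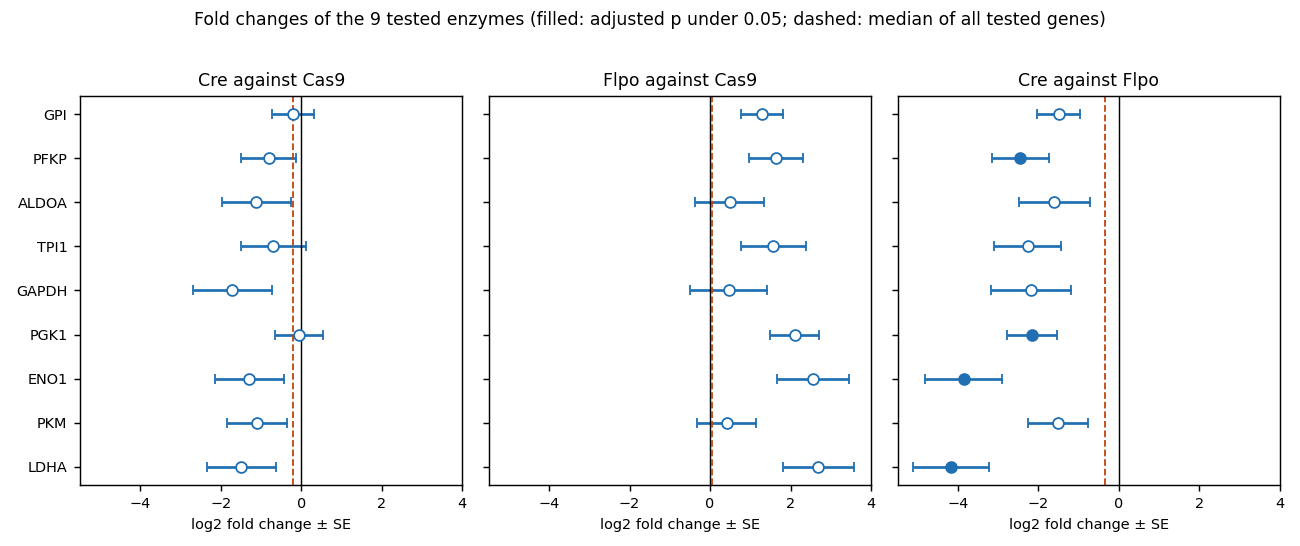
Log2 fold changes (horizontal axis, ± SE) of the 9 tested enzymes in the 3 comparisons; filled points passed an adjusted p of 0.05 and the dashed line is the median of all tested genes. Filled points appear only for PFKP, PGK1, ENO1 and LDHA in Cre against Flpo, and all 9 values there lie below the dashed line at −0.34.

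The calls rested on few libraries. Without Cre replicate 2, Cre replicate 3 or Flpo replicate 1, 0 enzymes passed, and 5 of them kept an unadjusted p under 0.05 in each of these fits. The number of all genes called was also 0 in these fits. Without Flpo replicate 3 only LDHA passed, with 405 of 12352 genes called, and without Flpo replicate 2 there were 6 enzymes, with 5559 of 12595 genes. Without Cas9 replicate 2 there were 2, with 1386 of 13829 genes, and without Cre replicate 1 there were 7, with 3131 of 13788. With library totals in place of TMM scaling, ENO1 and LDHA passed, and the median of all genes moved from −0.34 to 0.44. All 9 tested enzymes had negative log2 fold changes under both scalings.

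Library depth moved with the enzymes. They held 0.421%, 0.790% and 1.06% of counts in Cas9 replicates 1, 2 and 3, and 0.741%, 0.232% and 0.196% in Cre. In Flpo they held 1.47%, 0.568% and 1.41%. In all 3 groups the library with the largest total had the highest share. When the fit also held each library's log2 total, 0 enzymes passed in Cre against Flpo, and none reached 0.05 without adjustment. That fit called 0 of all 11905 genes, with 731 at an unadjusted p under 0.05. The log2 fold changes were then −2.82 for LDHA, −2.13 for ENO1, −2.11 for PGK1 and −0.34 for PFKP. Depth and genotype cannot be told apart in Cre against Flpo, since the totals did not overlap.

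**Figure D3:**
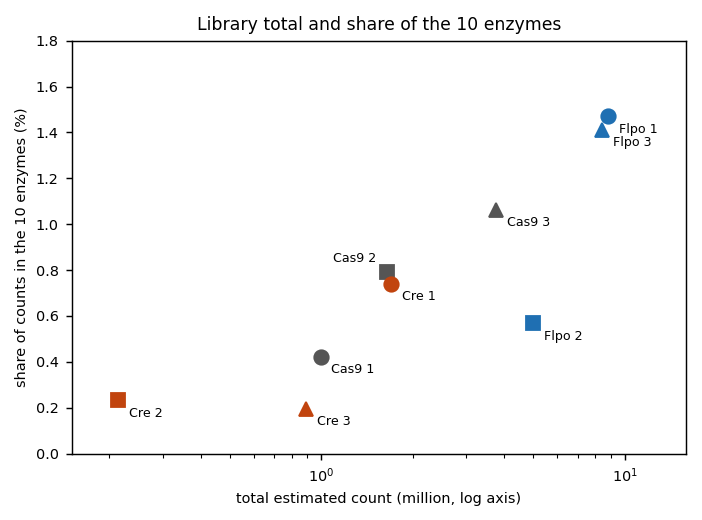
Share of counts in the 10 enzymes (vertical axis, percent) against the total estimated count of the library (horizontal log axis); each point is 1 library, coloured by group. Cre replicate 3 is lowest at 0.196% and Flpo replicate 1 highest at 1.47%, and Flpo replicate 2, at 0.568%, lies below 2 Cas9 libraries and Cre replicate 1.

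Ratios to GAPDH in the same library do not depend on how libraries are scaled. These ratios were chosen after the levels had been seen and are given as a description. LDHA had 0.0840, 0.161 and 0.126 counts per GAPDH count in the Cas9 replicates, while Cre had 0.0901, 0.480 and 0.226 and Flpo had 0.568, 0.339 and 0.863. ENO1 had 0.141, 0.131 and 0.178 in Cas9, 0.137, 0.614 and 0.281 in Cre, and 0.661, 0.352 and 0.925 in Flpo. For LDHA, ENO1 and PGK1 the Flpo libraries lay above all Cas9 libraries on this scale, but for none of the 9 other enzymes did they lie above all Cre libraries. Cre replicates 2 and 3 had GPI ratios of 0.887 and 1.04, where the other 7 libraries ran from 0.0754 to 0.317. For LDHA, ENO1, PGK1, GPI, PFKP and PKM, Cre replicate 1 lay within the Cas9 range of these ratios and Cre replicates 2 and 3 above it. The same did not hold for TPI1, ALDOA and HK2. GAPDH, the denominator, had 97.9 and 346 counts in Cre replicates 2 and 3.

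**Figure D4:**
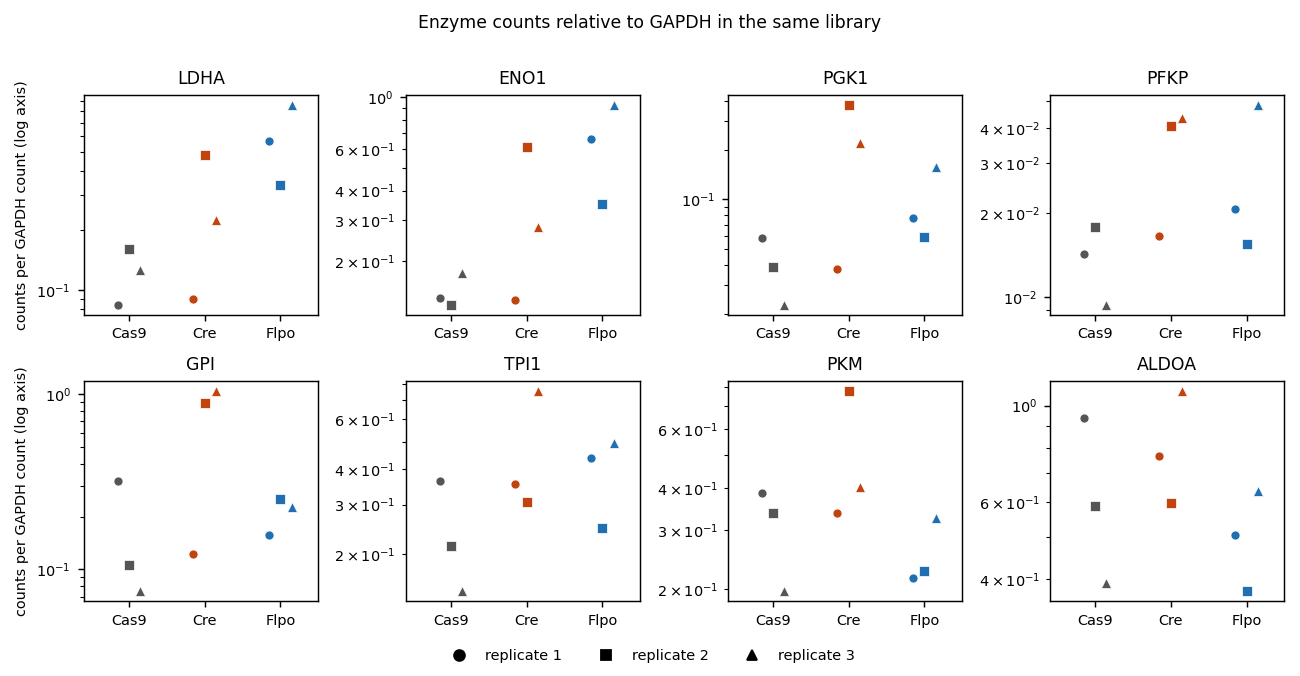
Counts per GAPDH count in the same library (vertical log axes, a separate scale for each gene) for 8 enzymes; each marker is 1 library. For LDHA the 3 Flpo libraries (0.339 to 0.863) lie above the 3 Cas9 libraries (0.0840 to 0.161), while Cre replicate 2 (0.480) falls among the Flpo libraries.

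The promoters of the 3 enzymes that also passed the test across all 3 groups are shown as a description. HIF-1 is known to bind the core ACGTG, and its part in these levels was not tested. Sequences are the 250 bases before the RefSeq start nearest to the principal transcript (GRCh38.p14), and capitals mark ACGTG read on either strand. Where it lies within the palindrome CACGTG, both readings were counted as 1 site.
LDHA, chr11:18394313-18394562, plus strand: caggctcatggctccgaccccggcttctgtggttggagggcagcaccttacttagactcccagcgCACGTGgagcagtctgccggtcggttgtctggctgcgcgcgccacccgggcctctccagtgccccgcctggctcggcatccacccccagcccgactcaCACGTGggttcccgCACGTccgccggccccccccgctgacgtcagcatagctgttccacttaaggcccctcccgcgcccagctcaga
PGK1, chrX:78103998-78104247, plus strand: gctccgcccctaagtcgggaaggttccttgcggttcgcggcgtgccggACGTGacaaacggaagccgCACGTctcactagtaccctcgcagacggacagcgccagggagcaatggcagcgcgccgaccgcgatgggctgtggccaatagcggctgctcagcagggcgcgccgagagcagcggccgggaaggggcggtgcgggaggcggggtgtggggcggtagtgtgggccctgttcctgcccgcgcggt
ENO1, chr1:8878687-8878936, minus strand: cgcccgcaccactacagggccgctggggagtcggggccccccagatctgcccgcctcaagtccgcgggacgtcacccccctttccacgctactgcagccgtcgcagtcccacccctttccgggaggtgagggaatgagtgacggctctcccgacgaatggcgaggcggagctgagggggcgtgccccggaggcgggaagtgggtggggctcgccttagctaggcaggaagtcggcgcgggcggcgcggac

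The LDHA window held 3 sites, 2 of them within CACGTG, and the PGK1 window held 2. The ENO1 window, whose RefSeq start lies 564 bases from that of the principal transcript, held none, which says only that these letters are not in this stretch. All 10 enzymes had a RefSeq promoter, and 6 of the 10 windows held ACGTG, beside 18.5% of all 35116 promoter windows of that length. CACGTG was in 3 of the 10 windows, beside 6.34% of all. ACGTG was also in the windows of HK2, GPI, ALDOA and GAPDH, and in none of those of PFKP, TPI1 and PKM. The RefSeq start used lay 1337 bases from that of the principal transcript for GAPDH and 450 bases for PFKP. The windows of the enzymes had a GC content of 53.2% to 76.8%, where the median of all windows was 58.0%. Only ALDOA (53.2%) and GPI (54.8%) lay below that median, and the rest ran from 68.4% to 76.8%. The windows of the enzymes were thus mostly richer in GC than those they are set beside.

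Flpo against Cas9 compared the Flpo group with the Cas9 group. In this comparison 0 of the 9 enzymes passed in edgeR, against 0.227% of all genes called, while 5 enzymes and 2378 of the 11905 genes had an unadjusted p under 0.05. The log2 fold changes ran from 0.41 to 2.69, with a median of 1.57 beside 0.046 for all genes. The highest were LDHA at 2.69 ± 0.88 (SE; edgeR adjusted p = 0.127), ENO1 at 2.56 ± 0.89 (adjusted p = 0.141) and PGK1 at 2.10 ± 0.61 (adjusted p = 0.102). The lowest were PKM at 0.41 ± 0.74, GAPDH at 0.47 ± 0.96 and ALDOA at 0.48 ± 0.86, all well within their errors, and these 3 turned negative with library totals in place of TMM scaling. The groups did not overlap for GPI, PGK1 and LDHA, with Flpo higher, against 12.9% of all genes. Without Flpo replicate 2, 4 enzymes passed (PFKP, PGK1, ENO1 and LDHA), along with 2685 of all 12595 genes tested. DESeq2 called 4 in the full data (GPI, PGK1, ENO1 and LDHA), along with 1065 of all 11905 genes. The Flpo and Cas9 totals did not overlap, so depth and genotype cannot be told apart here. With the log2 total in the fit 4 of the 9 log2 fold changes were negative.

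Cre against Cas9 compared the Cre group with the Cas9 group. EGFP had 154, 2 and 38 counts in the Cre replicates, 3, 0 and 2 in the Cas9 replicates and 0, 0 and 1 in the Flpo replicates. No enzyme passed in edgeR (0 of 9), nor did any of the 11905 genes (0% of all, 879 at an unadjusted p under 0.05). Unadjusted, 0 enzymes had a p under 0.05. DESeq2 called 0 enzymes as well, with 1 at an unadjusted p under 0.05. The log2 fold changes ran from −1.71 for GAPDH (SE 0.98) to −0.068 for PGK1 (SE 0.60), with a median of −1.10 beside −0.22 for all genes. No enzyme had groups without overlap, where 6.38% of all genes were lower in Cre without overlap. Cre replicate 1 lay within the Cas9 range for GAPDH, ALDOA, TPI1 and PKM, and Cre replicates 2 and 3 lay below it for these 4 genes. With sample quality weights in limma voom, 7 enzymes passed as lower in Cre, in a fit that called 3960 of all 11905 genes, 2260 of them lower. These comparisons share the Cas9 libraries, and the Flpo libraries enter both of the preceding ones.

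A joint edgeR test of all 3 groups called PGK1, ENO1 and LDHA, which is 3 of 9 enzymes beside 9.51% of all genes. Their edgeR adjusted p-values were 0.0397, 0.0343 and 0.0268. PFKP had an adjusted p of 0.0615 in the same edgeR test and GPI one of 0.101. Without Cas9 replicate 2, Cre replicate 2 or 3, or Flpo replicate 1 or 3, 0 enzymes passed this test, with 3 to 5 at an unadjusted p under 0.05.

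Most steps of glycolysis can be run by more than 1 isozyme, and the share of an isozyme within a library does not depend on scaling. ENO1 made up 97.9%, 96.7% and 97.2% of the enolase counts (ENO1, ENO2 and ENO3) in the Flpo replicates, 64.3%, 74.7% and 38.9% across Cre and 49.1%, 75.8% and 91.1% in the Cas9 replicates. The Flpo libraries were all above the rest and nearly equal. An exact permutation test over the 280 splits into 3 groups gave p = 0.0143, or 0.0714 after Benjamini-Hochberg adjustment over 5 shares. The neuronal form ENO2 and the muscle form ENO3 did not differ in edgeR between Cre and Flpo, with log2 fold changes of 0.66 ± 0.73 and 0.89 ± 0.55 (SE; adjusted p = 0.503 and 0.231).

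LDHA made up 55.3%, 54.7% and 56.3% of LDHA and LDHB counts in the Flpo replicates, 49.8%, 73.3% and 49.2% across Cre and 45.6%, 59.3% and 56.1% in the Cas9 replicates. The balance of the subunits was therefore much alike in most libraries while their level varied, and the exact permutation p was 0.932 (adjusted 0.932). Cre replicate 2, the highest, had 64.1 counts of both genes together. LDHB, the heart-type subunit, was like LDHA lower in Cre than in Flpo. It stood at 195, 63.9 and 69.4 CPM in Cre and 2826, 709 and 2717 CPM in Flpo (log2 fold change −4.24 ± 0.89, edgeR adjusted p = 0.0167).

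PFKP made up 61.3%, 34.8% and 64.3% of phosphofructokinase counts in the Flpo replicates, 25.9%, 16.2% and 9.29% across Cre and 9.95%, 33.9% and 37.0% in the Cas9 replicates. Flpo replicate 2 fell within the Cas9 range (exact permutation p = 0.0786, adjusted 0.196). In Cre replicate 2 the phosphofructokinase genes had 24.8 counts together. The liver form PFKL and the muscle form PFKM had log2 fold changes of 0.55 and −0.12 in Cre against Flpo, neither past the test. HK2 held 0% to 7.44% of HK1 and HK2 counts, HK1 being the ubiquitous hexokinase (exact permutation p = 0.679, adjusted 0.848). ALDOA held 92.1% to 99.7% of ALDOA and ALDOC counts (exact permutation p = 0.161, adjusted 0.268).

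**Figure D5:**
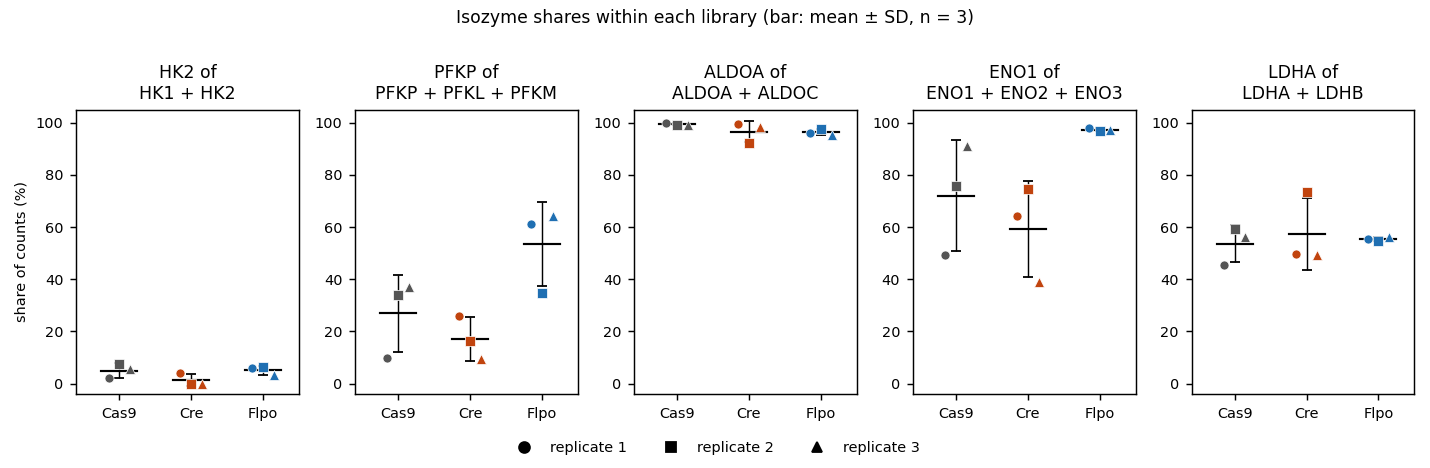
Share of counts (vertical axis, percent) of HK2, PFKP, ALDOA, ENO1 and LDHA among the isozymes named above each panel; markers are single libraries, bars the mean and whiskers the SD of 3 libraries. The Flpo libraries cluster between 96.7% and 97.9% for ENO1, whereas the LDHA share shows no separation of the groups.

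The remaining isozymes and pathway genes were read from lists chosen with earlier results of these data known. Their counts and medians are given as a description. In Cre against Flpo, 3 of 10 tested isozymes outside the 10 enzymes were lower and 0 higher: LDHB, PGAM1 and ALDOC. Among all genes tested, 14.3% were lower in Cre. PGAM1, the phosphoglycerate mutase between PGK1 and ENO1, stood at 162, 70.9 and 14.6 CPM in Cre and 1614, 431 and 1550 CPM in Flpo (log2 fold change −3.85 ± 1.05, edgeR adjusted p = 0.0277). ALDOC, the brain aldolase, stood at 7.31, 18.7 and 6.01 CPM in Cre and 126, 22.2 and 125 CPM in Flpo (−3.31 ± 0.86, edgeR adjusted p = 0.0240). The median of the 10 isozymes was −0.72, beside −0.34 for all genes tested. The other 9 of the 19 were not tested.

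At the ends of the pathway, 1 of 6 carrier genes was lower in Cre than in Flpo, a share near the 14.3% of all genes. It was SLC16A1, the monocarboxylate carrier MCT1 that moves lactate, at 11.2, 3.73 and 2.57 CPM in Cre and 65.7, 25.05 and 106 CPM in Flpo (log2 fold change −3.32 ± 0.79, edgeR adjusted p = 0.0199). These Cre levels were 23, 1 and 3 counts, at or below the floor of 3 counts in Cre replicates 2 and 3. The glucose carriers SLC2A1 and SLC2A3 had log2 fold changes of −1.51 and −0.47 and did not pass. The median of the 6 was −1.37.

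Some genes that govern the fate of pyruvate were lower in Cre than in Flpo. Of 6 tested regulators 2 passed, beside 14.3% of all genes, namely PDK3 and PDK2, kinases that inhibit pyruvate dehydrogenase. PDK3 stood at 33.0, 45.1 and 65.9 CPM in Cre, 55.4, 48.7 and 118 CPM in Cas9 and 1010, 385 and 1275 CPM in Flpo (log2 fold change −4.21 ± 0.70, edgeR adjusted p = 0.0167). Against Cas9 it was 3.58 ± 0.67 higher in Flpo, with an edgeR adjusted p of 0.0508. PDK2 had a log2 fold change of −2.74 ± 0.76 in Cre against Flpo (edgeR adjusted p = 0.0289). The median of the 6 was −1.45. Of the pyruvate dehydrogenase complex itself, 3 of 5 genes were lower in Cre: DLD at −2.96, PDHA1 at −2.75 and DLAT at −2.69, with a list median of −2.69. PDK2, DLD and DLAT each had 2 counts in Cre replicate 2, below the floor of 3 counts.

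Outside glycolysis, other carbon pathways had calls in Cre against Flpo, where 14.3% of all genes were lower in Cre. In the pentose phosphate pathway 2 of 7 genes were lower in Cre, RPIA and TALDO1, with log2 fold changes of −3.14 and −2.16 (edgeR adjusted p = 0.0335 and 0.0429), and the list median was −0.84. In the citric acid cycle 5 of 16 were lower, led by SDHB at −5.72, MDH2 at −4.26 and SDHA at −3.13, and the list median was −1.18, with 4 of the 16 log2 fold changes positive. In the Cre replicates RPIA had 2, 0 and 2 counts, SDHB 6, 1 and 1 and MDH2 36, 9 and 5. RPIA in all Cre libraries and SDHB in Cre replicates 2 and 3 lay below the floor of 3 counts. The sizes of their fold changes are therefore poorly measured. Of 3 tested gluconeogenesis genes 0 passed, with a median of −0.92 and 0 at an unadjusted p under 0.05. None of these lists had a gene higher in Cre, and none had a call in either comparison with Cas9. The HEK293 line markers KRT8 and KRT18 were also lower in Cre, with log2 fold changes of −3.36 and −4.43 (edgeR adjusted p = 0.0199 and 0.0167), whereas VIM was at 0.23 and LYZ, the 1 tested immune marker, at 1.37, neither past the test.

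Processed pseudogenes can take reads from their parent genes. The table held 85 symbols made of an enzyme's symbol, P and a number, 62 of them for GAPDH, and 72 of the 85 had any count. Together they held at most 0.0404% of counts in a library. ENO1P1 had 1090, 87.3 and 1235 counts in the Flpo replicates and 2.18 in Cre replicate 2, with 0 in the other 5 libraries. GAPDHP62 had 549, 29.2 and 746 counts in Flpo and GAPDHP60 had 307, 28 and 507. Outside Flpo, GAPDHP62 reached 1.66 counts and GAPDHP60 reached 8 in any library. Of these symbols, only ENO1P1, GAPDHP62, GAPDHP21 and GAPDHP71 passed the filter on low counts, and they did so through their Flpo counts. In Cre they reached at most 2.18 counts, so the direction of any call was largely set by the filter. They were called lower in Cre than in Flpo (edgeR adjusted p = 0.0167, 0.0212, 0.0200 and 0.0218), beside 14.3% of all genes. ENO1P1 was also called higher in Flpo than in Cas9 (edgeR adjusted p = 0.0351), where 0.227% of all genes were called. For ENO1 the pseudogene counts amounted to 4.63%, 2.597% and 5.25% of the parent's in the Flpo replicates, and for GAPDH to 4.38%, 10.4% and 7.47%. For LDHA the higher shares were in Cre, at 1.47%, 23.4% and 12.2%, against 0.201%, 2.09% and 0.152% in Flpo. For PKM the highest was 9.21% in Cre replicate 2. Adding pseudogene counts to the parents left the same 4 enzymes past the threshold in Cre against Flpo, with LDHA at −4.02 and ENO1 at −3.91.

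Outside the lists, the 5 genes whose levels followed the mean log2 level of the tested enzymes most closely over the 9 libraries were SNAP47, TMBIM6, UBE2L3, GLO1 and CCT6A, among 7634 candidates. Pearson's r was 0.995, 0.994, 0.993, 0.993 and 0.993, as a description over libraries that also differ in depth. GLO1, which detoxifies the glycolytic by-product methylglyoxal, stood at 38.2, 113 and 158 CPM in the Cas9 replicates, 76.5, 18.7 and 9.44 CPM in the Cre replicates and 567, 131 and 885 CPM in the Flpo replicates. TMBIM6, a membrane protein of the endoplasmic reticulum, stood at 66.5, 171 and 307 CPM, at 116, 59.7 and 40.3 CPM and at 654, 214 and 777 CPM in the same order. Both showed Flpo replicate 2 well below the other Flpo libraries and Cre replicate 1 above the other Cre libraries. Among the 9 tested enzymes the same order held within Flpo, while within Cre it failed for GPI and PGK1, whose highest library was Cre replicate 2.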

How the data were processed

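RNA from 9 HEK293 libraries was extracted with TRIzol and made into TruSeq RNA libraries, per the labels' protocols. The authors deposited 1 table of estimated counts per gene symbol, not normalized. Salmon 0.14.1 and build hg38 are named in the submitters' processing notes, while annotation, filters and use of strand are not given in the sources used here. Estimated counts were rounded and tested with edgeR 4.0.16 (R 4.3.3; quasi-likelihood, TMM, default filter with a minimum count of 10 and total of 15, all 9 libraries, no covariates), with Benjamini-Hochberg adjustment over 11905 genes and a threshold of 0.05. Whole-number counts had been assumed in the design. Standard errors were derived from each log2 fold change and its F statistic. Isozyme shares were tested by exact permutation of logit shares with 0.5 added to counts (Python 3.11.15). Symbols were matched to GENCODE 29 (GRCh38) for coordinates and lengths. Alternatives used DESeq2 1.42.0 and limma 3.58.1. The code was tested on simulated data. The enzymes and lists were chosen with earlier results of these data known. Named beyond the enzymes are list genes past the threshold (at most 3 per list and comparison), the 3 most abundant pseudogenes and any called, and the 5 most similar genes with a mean of at least 50 counts; other list genes are named for context, chosen after their values were seen. Floors cover counting error only.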

Additional observations from a re-analysis of the deposited data

How the results depend on the processing

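Depth, the few libraries per group and the choice of test all limit these results: in Cre replicate 2 a floor of 3 counts was 11.2 CPM, and Flpo replicate 2 stood apart from its group. Counts of enzymes past the threshold are given for Cre against Flpo (4 as reported), any difference (3), Flpo against Cas9 (0) and Cre against Cas9 (0). Without TMM they were 2 and 1 in the first pair, with 2879 and 963 of all 11905 genes called. DESeq2 gave 7, 6 and 4, with 3976, 2870 and 1065 of all 11905 genes. Sample quality weights in limma voom gave 9, 9, 6 and 7, with 8043, 9475, 7268 and 3960 of all 11905 genes. Without a filter there were 5, 5 and 3, with 3613, 3128 and 1169 of all 25386 genes. Fitting only the groups compared gave 3 in Cre against Flpo (PFKP, ENO1 and LDHA), with 2161 of 12759 genes called. With library depth (log2 total) as a covariate the first pair both fell to 0, as did the calls among all 11905 genes. The replicate block gave 2 and 0, with 1568 and 426 of all 11905 genes called. The 2 were ENO1 and LDHA, so PFKP at 0.0591 and PGK1 at 0.0665 no longer passed in edgeR. Pooled correlations of same-numbered libraries were −0.35 (Cre with Cas9), −0.062 (Flpo with Cas9) and 0.13 (Cre with Flpo). Single values ran from −0.55 to 0.53, both for Flpo with Cas9, so they do not settle whether the numbers paired the libraries. Leaving out 1 library gave 0 to 7 in Cre against Flpo, 0 to 6 for any difference, 0 to 4 in Flpo against Cas9 and 0 in Cre against Cas9. Among all genes tested, these fits called 0 to 5559, 10 to 4194, 0 to 2685 and 0 in the same order. The cause of these changes was not tested.

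All genes called in Cre against Flpo numbered 2440, of which 30.1% were higher in Cre, or 70.8% of 2879 without TMM. They numbered 3976 with DESeq2, 8043 with quality weights, 1568 with the replicate block and 0 with the depth covariate, where 731 had an unadjusted p under 0.05. Without Cre replicate 2, Cre replicate 3 or Flpo replicate 1 there were 0. For Flpo against Cas9 the 27 calls became 12, 1065, 7268, 6 and 0 under the same settings in that order from no TMM, and 1169 with no filter.

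Directions that reversed belonged to values that had not passed. Without TMM, Cre against Cas9 gave 0.041 for GPI and 0.21 for PGK1, and Flpo against Cas9 gave −0.062 for ALDOA, −0.032 for GAPDH and −0.11 for PKM. With the depth covariate, Cre against Cas9 gave 0.15 for TPI1. Flpo against Cas9 then gave −1.33 for ALDOA, −0.24 for TPI1, −1.09 for GAPDH and −0.50 for PKM, and Cre against Flpo gave 1.03, 0.39, 0.51 and 0.045 for the same genes. PGK1 in Cre against Cas9 was 0.058 with the stricter filter, and ran from −0.41 to 0.10 over fits leaving out 1 library, positive without Cas9 replicate 3 or Cre replicate 3. GAPDH in Flpo against Cas9 ran from −0.0077 (without Flpo replicate 1) to 1.11.

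The adjusted exact p of the ENO1 share ran from 0.0357 (without Cas9 replicate 1) to 0.250 over fits leaving out 1 library, that of the HK2 share from 0.442 to 0.996, of the ALDOA share from 0.107 to 0.612 and of the LDHA share from 0.457 to 0.971. The LDHA share, at 0.353 with pseudogenes added, then changed direction between Cre and Flpo. So did the HK2 share without Cre replicate 3 (0.996), the ALDOA share without Cre replicate 1 (0.107) and the LDHA share without Cre replicate 2 (0.457). With splits kept within the replicate block, the ENO1 share had an adjusted p of 0.324.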
